A study of Gallus gallus with 8 samples.

Results

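The genes described here carry the symbols of subunits of the mitochondrial respiratory chain and the ATP synthase, together with the electron carrier cytochrome c. They were chosen by name, as the genes on the chicken array whose symbols match set patterns for complexes I to V, in which a prefix (NDUF, SDH, UQCR, COX or ATP5) is followed by certain subunit letters and numbers, or are CYC1 or CYCS. Some genes that carry the same prefixes, among them COX4I1, COX7A2L and NDUFAB1, lie outside these patterns. The rule uses symbols and not intensities. The rule found 64 genes out of 13009 genes with a single symbol on the array. Of these, 33 were assigned by symbol to complex I, 2 to complex II, 8 to complex III, 6 to complex IV and 14 to the ATP synthase (complex V). The last is CYCS. A total of 117 probe sets measure them, and where a gene had several, the probe set with the highest mean over all arrays was used. SDHB, SDHC and CYC1 were not analysed here, and neither was COX7A2, whose probe set carries a second gene symbol.

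Mitochondria make ATP by oxidative phosphorylation. Complexes I and II take electrons from NADH and succinate, complex III passes them to cytochrome c, and complex IV hands them to oxygen. Complexes I, III and IV pump protons across the inner membrane while they do so, and the ATP synthase uses the returning protons to make ATP. The genes studied here lie in the nucleus, whereas a small number of core subunits are encoded by mitochondrial DNA and were not part of the set. Cells can also make ATP in the cytosol by glycolysis, with lactate dehydrogenase regenerating the NAD that glycolysis consumes.

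The study used unmodified chick embryos and asked which genes mark the otic placode, the thickened ectoderm that becomes the inner ear, and which of them respond to FGF signalling. Otic ectoderm and lateral ectoderm, both labelled stage 10, were collected directly after dissection. Trigeminal ectoderm, labelled stage 8, was embedded in collagen gel and cultured in serum-free medium for 18 h, either with 50 ng/ml FGF2 or with none. Each of these 4 groups was measured on 2 Affymetrix arrays, 8 in all, and every array received amplified RNA of about 80 pooled pieces. Because each array is a pool, the p-values measure the spread between pools and not between embryos. Culture, ectoderm region and stage at dissection all differ between the cultured and the fresh groups, so their effects cannot be told apart. By their labels, the otic and lateral groups differ in region alone and the cultured groups in FGF2 alone.

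Values are given as normalized intensity, the brightness of a probe set after quantile normalization, which gives all 8 arrays the same distribution of values. Intensities of different probe sets cannot be compared with each other, since probes differ in how strongly they bind. Array medians before normalization lay between 25.6 and 31.7. The log2 ratio of the 3′ to the 5′ probe set of actin, a sign of RNA length, lay between 1.02 and 1.42. It was lower in both lateral arrays than in any other array. That of GAPDH lay between 1.06 and 1.92 in the otic and cultured arrays but at 2.27 and 2.18 in the lateral arrays. Actin and GAPDH thus placed the lateral arrays at opposite ends, and they cannot tell whether lateral RNA was shorter. The labels were checked against markers. The summed intensity of 7 otic placode genes was 10853 to 13594 in the otic arrays and 1098 to 1778 in the lateral arrays. In the cultured arrays it lay between these, at 4141 to 5109 without FGF2 and 4715 to 5118 with FGF2. Of the genes that define trigeminal placode, PAX3 stayed between 3.02 and 33.7 in all 8 arrays, and the whole trigeminal set of 6 genes summed to 223 to 277 in the untreated cultures, 629 to 846 with FGF2, 728 to 894 in the otic arrays and 104 to 188 in the lateral arrays, with ISL1 the brightest of its genes in the otic arrays and both cultured groups. EYA1 and NEUROD1, further genes of that set, stayed under the array median in all cultured arrays. Of the 6 genes, 3 lay at or below it in both untreated arrays and 2 in both FGF2 arrays. The same count was 4 in the otic and 5 in the lateral arrays. PAX3, EYA1 and NEUROD1 thus give the label little support, and the other genes of the set are not particular to the cultures. The cultured arrays held more of the neural tube set (4880 to 9095, against 503 to 2333 in the fresh arrays) and of the neural crest set (2475 to 4579 against 693 to 1392). Mesoderm and heart genes summed to 4745 to 10451 in the fresh arrays and 1338 to 1836 in the cultured arrays, and blood and endothelium genes to 2465 to 6820 against 416 to 620. These shifts in other tissues accompany every difference between cultured and fresh ectoderm given below, and their part in those differences was not tested. In RNA of whole tissue pieces, fewer cells of a type and less RNA per cell cannot be told apart.

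Most respiratory chain genes were bright and varied by less than 2-fold across the 8 arrays. All but 1 of the 64 genes were brighter than the dimmest 40% of probe sets, 42 had a mean intensity over 1000 and 5 had one under 100. In 48 of 64 genes the highest of the 8 arrays was less than 2-fold above the lowest. This held for 25 of 33 genes of complex I, 1 of 2 of complex II, 7 of 8 of complex III, CYCS, 4 of 6 genes of complex IV and 10 of 14 of complex V. Between its highest and lowest group mean a gene differed by a median of 0.35 on the log2 scale.

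**Figure D1:**
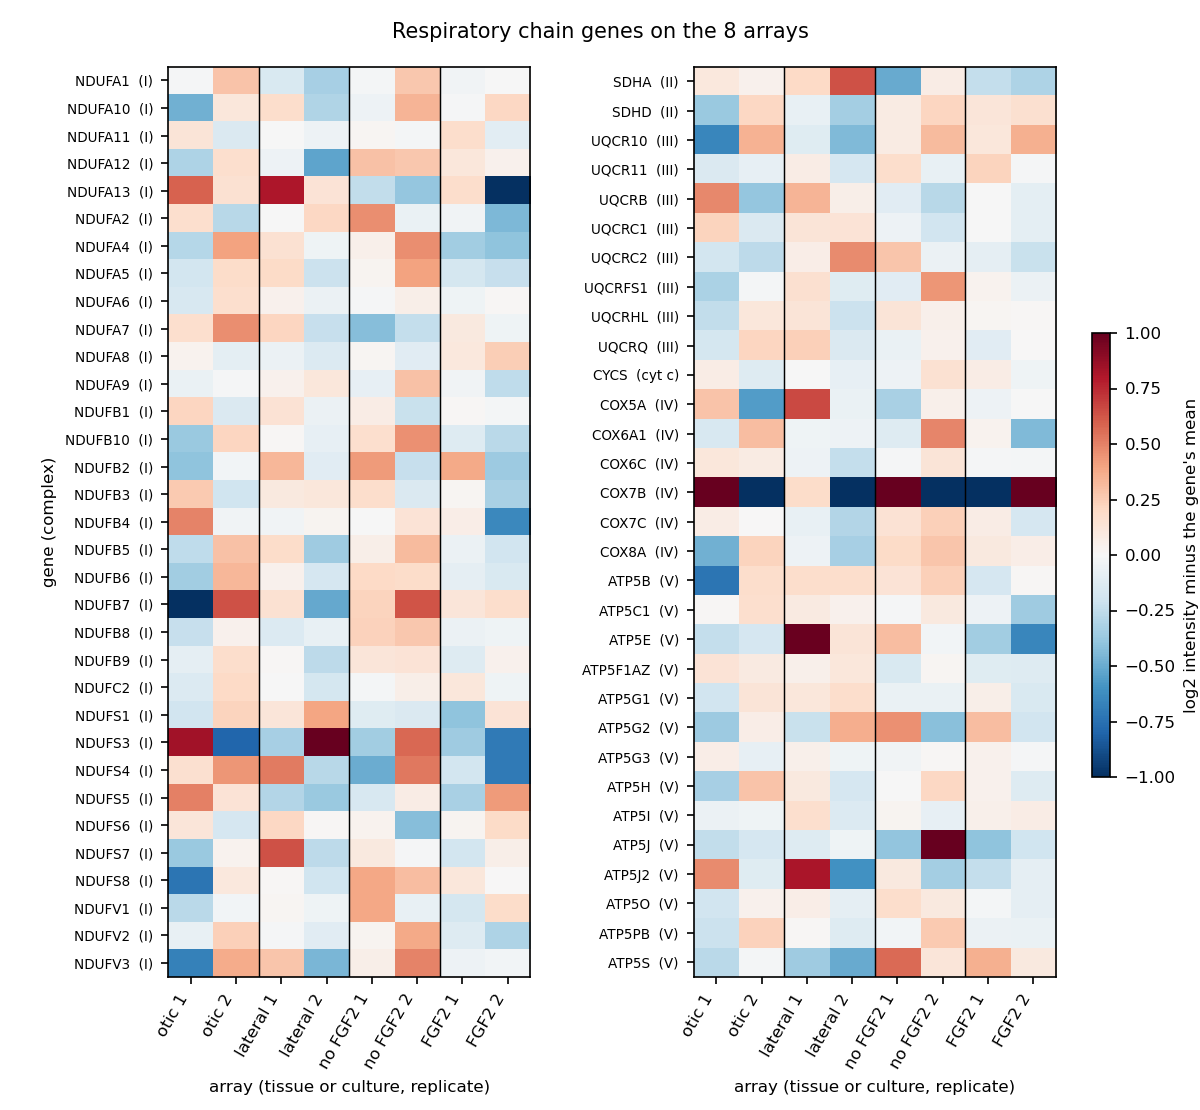
Normalized intensity of the 64 respiratory chain genes in each of the 8 arrays, drawn as the log2 difference from the gene's own mean over the arrays, with genes in rows by complex and arrays in columns by group. The otic 1 column holds the lowest value of the 8 arrays for 22 genes and no column is uniformly high or low.

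Part of the unevenness belonged to single arrays. The first otic array gave the lowest of the 8 values for 22 of 64 genes, and its median deviation from the gene means was -0.16, whereas the second otic array lay at 0.085. Within the otic group 42 of 64 genes were higher in the second array, by a median of 0.26. Within the lateral group 15 of 64 were higher in the second array (median -0.19), within the untreated cultures 38 (0.084) and within the FGF2 cultures 22 (-0.064). Over all probe sets the same medians were 0 and 48.9 to 50.0% were higher in the second array. Quantile normalization by itself holds them near such values. Whether other genes of like brightness shifted in the same way as the chain genes was not tested. Within these groups the chain genes tended to move together from one array to the next. An example is ATP5B, the catalytic beta subunit of the ATP synthase, which measured 4043 and 7585 in the otic arrays, 7574 and 7585 in the lateral arrays, 7391 and 7913 without FGF2 and 5967 and 6768 with FGF2. Only the first otic array was low, and the other 7 arrays spanned 5967 to 7913.

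Between cultured and fresh ectoderm no respiratory chain gene passed a test. With quantile normalization, the intervals of most of them bound any difference to less than 2-fold. None of the 64 genes passed an adjusted p under 0.05 (limma, Benjamini-Hochberg over 38439 probe sets), whereas 327 probe sets did, which is 0.851% of those tested. A looser limit, the 2-fold rule, asks for a fold change over 2 and a p under 0.05 before adjustment. None of the 64 genes passed it, beside 9.04% of all probe sets and 8.12% of those left after the dimmest 40%, and 1 of 64 had an unadjusted p under 0.05, against 13.2% of all probe sets. The median log2 difference of cultured minus fresh was 0.039 over the 64 genes and 0.011 over all genes, with 38 genes above 0 and 26 below. Differences ran from -0.85 for NDUFA13 to 0.58 for NDUFB7, 43 genes lay within 0.2 of 0, and 61 within 0.5. Because a p that misses a threshold does not show sameness, the intervals carry the result. They were counted only for the quantile-normalized fit of all 8 arrays, and not under the other scalings. For 51 of 64 genes (79.7%) the 95% interval of the difference lay wholly within a 2-fold change in either direction, while this was so for 40.9% of all genes on the array. The interval also lay within 2-fold for 57 of 66 cytoplasmic ribosomal proteins, 53 of 67 mitochondrial ribosomal proteins and 27 of 39 assembly factors. The 13 genes whose interval reached past 2-fold were NDUFA13, NDUFB7, NDUFS3, NDUFS4, NDUFS8, NDUFV3, SDHA, UQCR10, COX7B, ATP5E, ATP5J, ATP5J2 and ATP5S. Non-overlapping groups, with all 4 arrays of one side above all 4 of the other, were seen for 1 gene higher in culture (ATP5S) and 1 lower (ATP5F1AZ), where 4.67% and 4.2% of all probe sets did the same.

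**Figure D2:**
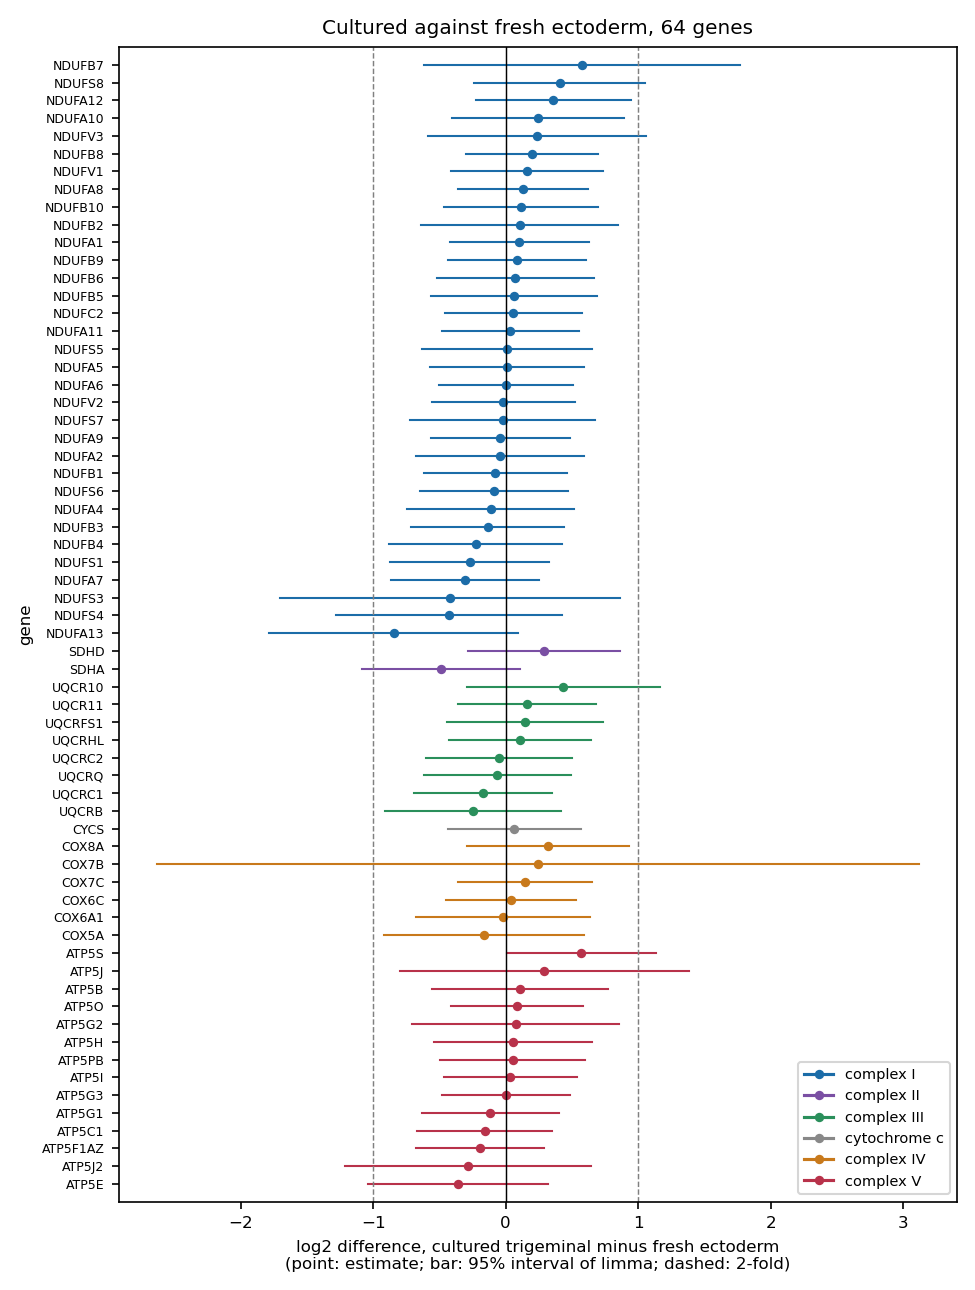
Log2 difference of cultured minus fresh ectoderm for each of the 64 respiratory chain genes, grouped by complex, with points for the limma estimate and bars for its 95% interval, and the 2-fold limits drawn as dashed lines. Points run from -0.85 to 0.58, and 51 of the 64 bars end inside the 2-fold limits.

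Complex I, the NADH dehydrogenase, is the largest of the complexes, with a core that carries flavin and iron-sulfur clusters and many accessory subunits around it. Its 33 genes had a median difference of 0.011 between cultured and fresh ectoderm, 19 above 0 and 14 below. Of the nuclear core subunits, NDUFV1, which binds NADH and flavin, differed by 0.16 (95% interval -0.41 to 0.73). NDUFS1, the large iron-sulfur subunit, differed by -0.27 (-0.87 to 0.33), and NDUFV2, another iron-sulfur subunit, by -0.017 (-0.56 to 0.52). The remaining core subunits NDUFS7, NDUFS8 and NDUFS3 gave -0.02, 0.41 and -0.42. None of these 6 passed a test, and they lay on both sides of 0.

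NDUFB7, an accessory subunit of the membrane arm, had the highest estimate of the complex. It measured 213 and 888 in the otic arrays, 634 and 401 in the lateral arrays, 668 and 883 without FGF2 and 623 and 646 with FGF2, a difference of 0.58 (SE 0.49, 95% interval -0.61 to 1.77, limma adjusted p = 0.69). The cultured arrays all lay within the range of the fresh ones, and the first otic array, at 213, was the low point. Without the second otic array the estimate was 1.09 and passed the 2-fold rule (unadjusted p = 0.014, adjusted p = 0.23). NDUFA13, an accessory subunit also known in mammals as the cell death factor GRIM-19, had the lowest estimate, -0.85 (SE 0.38, 95% interval -1.79 to 0.094, adjusted p = 0.43). Its intensities were 563 and 414 in the otic arrays, 655 and 412 in the lateral arrays, 315 and 286 without FGF2 and 423 and 158 with FGF2. One cultured array, the first with FGF2, lay among the fresh ones, and without it the estimate became -1.20, past the 2-fold rule (unadjusted p = 0.013, adjusted p = 0.31).

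NDUFA6, an accessory subunit at the matrix arm, had the smallest cultured minus fresh difference of complex I. Its 8 arrays lay between 1393 and 1739.8, a difference of 0.0053 (95% interval -0.50 to 0.51). NDUFA8, an accessory subunit on the intermembrane face and the brightest probe set of the complex, measured 6222 and 5691 in the otic arrays, 5836 and 5529.9 in the lateral arrays, 6152 and 5633 without FGF2 and 6527 and 7217 with FGF2. Cultured and fresh arrays overlapped in both genes.

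Complex II, succinate dehydrogenase, belongs to both the tricarboxylic acid cycle and the electron transport chain. SDHA, its flavoprotein, measured 2430.0 and 2326 in the otic arrays, 2595 and 3510.4 in the lateral arrays, 1594 and 2385 without FGF2 and 1921 and 1823 with FGF2. Of the cultured arrays, 3 lay below every fresh array and the fourth within the fresh range, with an estimate of -0.49 (SE 0.25, 95% interval -1.09 to 0.11, limma adjusted p = 0.48). SDHD, which anchors the complex in the membrane, leaned the other way at 0.29 (SE 0.24, interval -0.29 to 0.87, adjusted p = 0.67). Its arrays gave 1411 and 2110.0 in the otic arrays, 1733 and 1442 in the lateral arrays, 1934 and 2119 without FGF2 and 1983 and 2042 with FGF2, so the second otic array lay among the cultured ones.

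Complex III, the cytochrome bc1 complex, had 8 genes with a median difference of 0.029, from -0.24 for UQCRB to 0.44 for UQCR10, both small subunits. UQCR10 measured 3330.4 and 6657 in the otic arrays, 4821 and 3849.9 in the lateral arrays, 5537 and 6539 without FGF2 and 5679.9 and 6694 with FGF2, so that the first otic array was the low point and the second lay among the cultured ones. Its interval ran from -0.29 to 1.16 (adjusted p = 0.61). UQCRC1 and UQCRC2, the core proteins of the complex, differed by -0.17 (-0.69 to 0.35) and -0.051 (-0.60 to 0.50). UQCRFS1, the Rieske iron-sulfur protein that receives electrons from ubiquinol, differed by 0.15 (-0.44 to 0.73).

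Cytochrome c, the small mobile protein that carries electrons from complex III to complex IV and that triggers apoptosis when it leaves the mitochondrion, was among the steadiest. CYCS measured 4624 and 4022 in the otic arrays, 4393 and 4156 in the lateral arrays, 4231 and 4891 without FGF2 and 4635 and 4259 with FGF2, a range of 1.22-fold over all 8 arrays. Cultured minus fresh was 0.067 (SE 0.21, 95% interval -0.44 to 0.57, limma adjusted p = 0.93).

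Complex IV, cytochrome c oxidase, was represented by 6 nuclear subunits, all of them outside the catalytic core, with a median difference of 0.093. COX8A, the small subunit used in most tissues, had the highest estimate, 0.32 (SE 0.25, adjusted p = 0.66). Its arrays gave 1162 and 1890.3 in the otic arrays, 1563 and 1285 in the lateral arrays, 1850.35 and 1966 without FGF2 and 1734 and 1694 with FGF2, and the second otic array again lay inside the cultured range. COX6A1, the form of subunit 6A found outside heart and skeletal muscle, differed by -0.023 (-0.68 to 0.63), COX6C by 0.042 (-0.45 to 0.53) and COX7C by 0.14 (-0.36 to 0.65). COX5A was dim, between 71.7 and 167, and had the lowest estimate, -0.16 (-0.92 to 0.59). Its other probe set had nearly the same mean intensity (105.3 against 105.5) and lay on the other side of 0, at 0.27. The only probe set for COX7B lay between 1.00 and 14.2, near the floor of the array, and its interval of -2.63 to 3.12 spans more than 2-fold in both directions.

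The ATP synthase has a catalytic F1 head in the matrix, a ring of c subunits in the membrane and a stator that holds the head still. ATP5S, known in mammals as coupling factor B and placed with complex V by its symbol alone, was the one gene with an unadjusted p under 0.05. It measured 645 and 769 in the otic arrays, 608 and 549.7 in the lateral arrays, 1153 and 847 without FGF2 and 997 and 831 with FGF2. All 4 cultured arrays lay above all 4 fresh ones, with an estimate of 0.57 (1.49-fold, SE 0.23, 95% interval 0.012 to 1.13, unadjusted p = 0.047, limma adjusted p = 0.37). Over the other settings tried, its adjusted p ran from 0.11 to 0.63, and it did not pass in any of them. ATP5F1AZ, the Z-linked alpha subunit of the F1 head, was the one gene lower in all cultured arrays, at 10249 and 9899 in the otic arrays, 9665 and 10072 in the lateral arrays, 8373 and 9429 without FGF2 and 8559.6 and 8539 with FGF2. The size was small, -0.19 (SE 0.20, adjusted p = 0.74).

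Other F1 subunits lay on either side of 0. ATP5B, the beta partner of the alpha subunit, differed by 0.11 (-0.56 to 0.77) and ATP5C1, the rotating gamma subunit, by -0.16 (-0.67 to 0.35). In mammals, ATP5G1, ATP5G2 and ATP5G3 encode the same mature c subunit of the membrane ring. ATP5G3 was the flattest gene of complex V, at 11723 and 10601 in the otic arrays, 11616 and 10877 in the lateral arrays, 10952 and 11316 without FGF2 and 11522 and 11102 with FGF2, a span of 1.11-fold over all arrays and a difference of 0.0035 (-0.48 to 0.49). ATP5G1 differed by -0.11 (-0.63 to 0.40) with intensities between 5574 and 7188, and ATP5G2, whose probe set stayed between 30.8 and 56.5, by 0.077 (-0.70 to 0.86). Of the stator genes, ATP5O, ATP5PB and ATP5H lay at 0.085, 0.052 and 0.057, each with an interval inside the 2-fold limits. The stator gene ATP5J, from a dim probe set, lay at 0.29 with an interval past those limits (-0.80 to 1.39). The lowest estimate belonged to ATP5E, the epsilon subunit, at -0.36 (SE 0.28, adjusted p = 0.66), from a dim probe set described further below.

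A few genes of cytosolic energy metabolism did differ between the cultured and the fresh arrays, which also differ in ectoderm region and stage. LDHA, the lactate dehydrogenase subunit typical of muscle and of glycolytic tissue, measured 267 and 351 in the otic arrays, 473 and 348 in the lateral arrays, 6519.95 and 5038 without FGF2 and 8071 and 5849 with FGF2. The lowest cultured array lay 10.6-fold above the highest fresh one, and the difference was 4.15 on the log2 scale (17.8-fold, SE 0.26, limma adjusted p = 0.0096). LDHB, the subunit typical of heart and other oxidative tissue, differed by -0.03 (95% interval -0.52 to 0.46), with all arrays between 10407 and 12023. SLC16A3, a transporter that exports lactate, lay at 213 to 443 in fresh ectoderm and at 826 to 1671 in cultured ectoderm. The difference was 1.91 (SE 0.20, limma adjusted p = 0.033). ENO2, the neuronal form of the glycolytic enzyme enolase, was higher in cultured ectoderm by 2.57 (SE 0.29, limma adjusted p = 0.036). The common form ENO1 differed by 0.11 (-0.37 to 0.59). The 20 glycolysis genes measured had a median of 0.14, with these 3 higher at adjusted p under 0.05 and 0 lower. The remaining 17 did not pass. The ENO2 and SLC16A3 calls needed all 8 arrays, and the LDHA call needed every array except the first untreated one. With any 1 array left out the LDHA difference stayed between 4.04 and 4.27 but its adjusted p rose to between 0.050 and 0.11, passing only without the first untreated array, and ENO2 (differences of 2.33 to 2.81) and SLC16A3 (1.87 to 1.95) then never passed (adjusted p of 0.074 to 0.16 and 0.079 to 0.16).

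Creatine kinases, which pass the energy of ATP to and from creatine, were also higher in the cultured arrays. CKB, the brain form, lay at 877 to 1528 in fresh ectoderm and at 4259 to 7374 in cultured ectoderm. The difference was 2.20 (SE 0.26, limma adjusted p = 0.039). CKMT2, the mitochondrial form of heart and skeletal muscle, lay at 1.40 to 8.85 in fresh and at 44.1 to 142 in cultured ectoderm. It differed by 4.33 (SE 0.38, limma adjusted p = 0.022). The fresh values of CKMT2 lie far below the array medians, so the size of its difference is uncertain. With an offset of 32 added before the log2 the difference was 1.56. With any 1 array left out neither passed, with differences of 2.00 to 2.40 for CKB (adjusted p of 0.065 to 0.17) and 4.07 to 4.59 for CKMT2 (0.066 to 0.14). These were the 2 genes that passed among 11 carriers and creatine kinases. The adenine nucleotide carrier SLC25A4, the heart and muscle form, was lower in all cultured arrays (-1.06, SE 0.25) and passed the 2-fold rule (unadjusted p = 0.0057) but missed the threshold after adjustment (limma adjusted p = 0.15), while its relatives SLC25A5 and SLC25A6 lay at -0.023 and -0.00063.

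Other mitochondrial gene groups had no member past an adjusted p under 0.05 in the culture comparison. The 39 assembly factors that build the complexes had a median of 0.16, the 67 mitochondrial ribosomal proteins 0.0018 and the 16 genes of mitochondrial biogenesis and DNA maintenance -0.083. The 15 genes of the tricarboxylic acid cycle had a median of -0.27, with 11 below 0 and 4 above. The list of further chain subunits and electron inputs that the naming rule misses had 10 measured genes, and without AOX1 the other 9 had a median of 0.035. Among them COX4I1, the regulatory subunit of complex IV, lay at 0.10, and NDUFAB1, the acyl carrier protein of complex I, at -0.017, both close to 0. ETFA, which feeds electrons from fatty acid oxidation into the chain, was the one electron carrier past the 2-fold rule (-1.32, unadjusted p = 0.035, adjusted p = 0.33), from a dim probe set. AOX1, a member of that list which also passed it (-2.50, adjusted p = 0.16), is an aldehyde oxidase in vertebrates and no part of the chain. As a second large set of housekeeping genes, the 66 cytoplasmic ribosomal proteins had a median of 0.14, with 59 above 0 and 7 below. They had 0 members past the threshold.

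**Figure D3:**
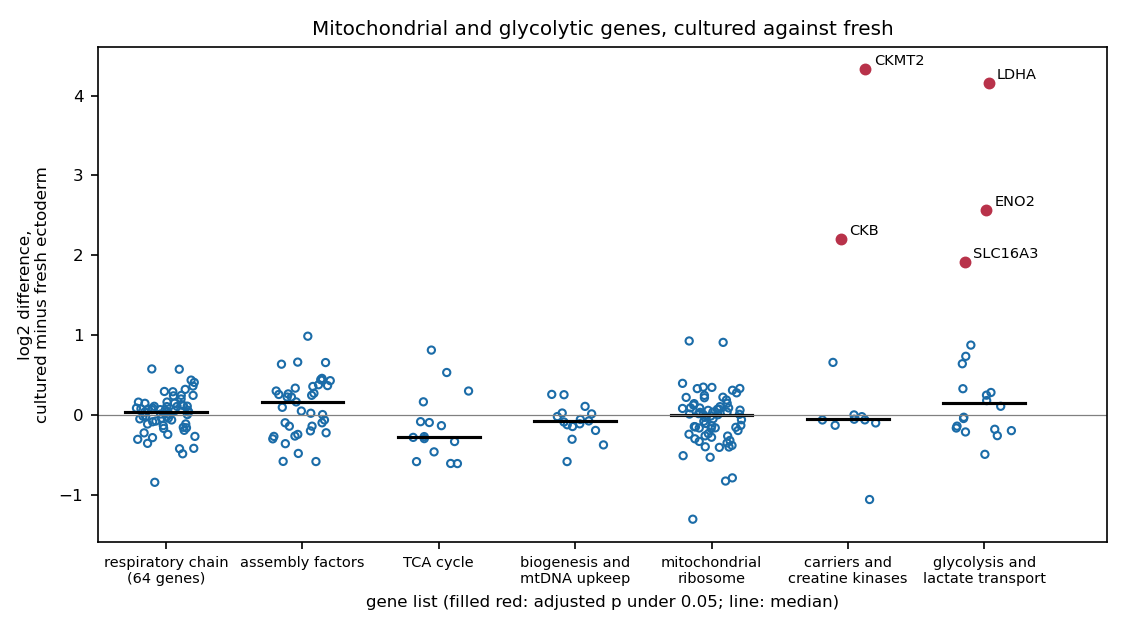
Log2 difference of cultured minus fresh ectoderm for the respiratory chain genes and other gene groups, with a point per gene and a bar at each group's median. The other groups are assembly factors, the tricarboxylic acid cycle, biogenesis and DNA maintenance, mitochondrial ribosomal proteins, carriers and creatine kinases, and glycolysis. Cytoplasmic ribosomal proteins and the chain subunits that the naming rule misses are not drawn. The respiratory chain points cluster around a median of 0.039, and LDHA, ENO2, SLC16A3, CKB and CKMT2 stand at 1.91 or above.

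Between otic and lateral ectoderm, both fresh and of one labelled stage, no chain gene passed a test either. None of the 64 passed an adjusted p under 0.05, as was so of 0% of all probe sets, and none passed the 2-fold rule, which 7.55% of probe sets did, or 5.91% without the dimmest 40%. No gene had an unadjusted p under 0.05, beside 8.47% of probe sets. Over the 64 genes, otic minus lateral had a median log2 difference of -0.0099, with 31 genes above 0 and 33 below. With 2 arrays on each side the intervals were wider, and those of 34 genes (53.1%, against 17.2% of all genes) lay within 2-fold. The 2 otic arrays lay above both lateral arrays in 5 genes (7.81%) and below both in 5, where 18.1% and 17.5% of all probe sets did so. Cytoplasmic ribosomal proteins had like shares, 10.6% higher and 7.58% lower, and so had mitochondrial ribosomal proteins, 10.4% and 7.46%. With 1 array left out, all probe sets separated more often. Without the first otic array 26 chain genes were higher (40.6%, beside 33.7% of all probe sets) and 16 lower (25.0%, beside 33.6%), and without the second 16 were higher (25.0%, beside 35.9%) and 32 lower (50.0%, beside 33%). Without the first lateral array 19 were higher and 10 lower, and without the second 7 and 21, where between 31.4% and 34.2% of all probe sets were so in each direction. Marker sets moved strongly between the same arrays, including the otic, endoderm (2473 to 4072 against 5860 to 10461) and blood sets.

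Of the 5 genes higher in both otic arrays, NDUFS5, an accessory subunit of complex I with a dim probe set, had the largest difference. It measured 93.4 and 72.5 in the otic pools and 53.7 and 50.8 in the lateral pools, a difference of 0.66 (SE 0.37, 95% interval -0.25 to 1.57, limma adjusted p = 0.73). NDUFA1, a small membrane subunit of complex I, gave 1765 and 2162 in the otic pools and 1602 and 1413 in the lateral pools (0.38, SE 0.30). ATP5S, COX6C and COX7C followed at 0.28, 0.24 and 0.22. Complexes I, IV and V are represented among these 5 genes.

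Of the 5 genes lower in both otic arrays, ATP5E, the epsilon subunit of the F1 head, had the largest difference, -0.76 (SE 0.39, 95% interval -1.72 to 0.20, limma adjusted p = 0.7). Its probe set is dim, at 66.2 and 69.3 in the otic pools and 155 and 85.1 in the lateral pools, and the first lateral array was the highest of the 8. Without the second lateral array the estimate was -1.19 and passed the 2-fold rule (unadjusted p = 0.028, adjusted p = 0.43). UQCRC2, a core protein of complex III, gave 3238 and 3072 in the otic pools and 3853 and 5116 in the lateral pools, a difference of -0.49 (SE 0.32, adjusted p = 0.76). SDHA followed at -0.34, ATP5J at -0.12 and NDUFA9 at -0.12. The largest estimate of all 64, 1.32 for COX7B, came from intensities of 1.00 to 14.2 and its groups overlapped. NDUFB7 lay at -0.21 with all arrays. It reached -1.24 once the second otic array was left out, which left the low first otic array alone in its group.

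FGF2 likewise moved no chain gene past a threshold in cultured trigeminal ectoderm. At an adjusted p under 0.05 there were 0 of 64 genes, beside 0% of all probe sets, and at the 2-fold rule 0, beside 4.87% of probe sets, or 2.47% without the dimmest 40%. At an unadjusted p under 0.05 there were again 0 of 64, beside 5.26%. Adjusted p-values of the 64 genes were all 1. Intervals of 30 genes (46.9%, against 21.5% of all genes) lay within 2-fold, and those of the other 34 did not, so that a change of more than 2-fold lies within their intervals.

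Within that, the estimates leaned downward. With quantile normalization the median log2 difference of FGF2 minus no FGF2 was -0.15, 47 genes lay below 0 and 17 above, and both FGF2 arrays lay below both untreated arrays in 22 genes (34.4%) and above them in 4 (6.25%), where 17.5% and 17.8% of all probe sets did so (17.9% lower without the dimmest 40%). The second minus the first array gave a median over the same genes of 0.26 within the otic group and -0.19 within the lateral group. It was 0.084 within the untreated cultures and -0.064 within the FGF2 cultures. Chain genes tended to move together between arrays, so the counts of genes are not counts of separate observations. The lean depended on the scaling between arrays. Cyclic loess gave 47 genes below 0 and a median of -0.14, whereas centring each array on its median gave 31 below 0, a median of 0.0071 and 9 genes wholly lower (14.1%, beside 16.1% of all probe sets) against 11 wholly higher (17.2%, beside 20.7%). With no scaling the counts were 26 below 0, 3 wholly lower (4.69%, beside 13.1% of all probe sets) and 13 wholly higher (20.3%, beside 23.3%), and the median was 0.063. With quantile normalization and 1 array left out, 39 genes were wholly lower without the first untreated array (60.9%, beside 36.6% of all probe sets), 32 without the second (50.0%, beside 34.4%), 36 without the first FGF2 array (56.2%, beside 32%) and 30 without the second (46.9%, beside 30.9%). Relative to the median of all probe sets under the same scaling, the chain genes lay at -0.14 with quantile normalization, -0.13 with cyclic loess and -0.034 with the other 2. The probe sets left after the dimmest 40% had a median of 0.0012 with quantile normalization and -0.0055 with cyclic loess. With median centring their median was 0.067, and with no scaling 0.12, both above those of the chain genes. With quantile normalization both FGF2 arrays were lower for 26 of 66 cytoplasmic ribosomal proteins (39.4%), while the 12 of 67 mitochondrial ribosomal proteins (17.9%) were at the share of all probe sets.

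**Figure D4:**
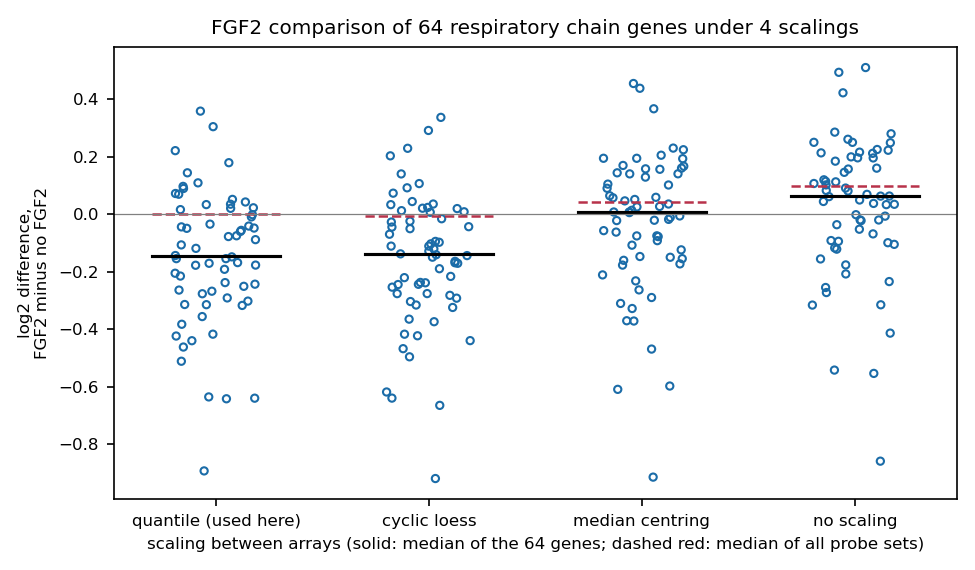
Log2 difference of FGF2 minus no FGF2 for the 64 respiratory chain genes under 4 ways of scaling the arrays, one point per gene, with the median of the genes and the median of all probe sets marked. Medians of the chain genes are -0.15 and -0.14 under quantile normalization and cyclic loess, and 0.0071 and 0.063 under median centring and no scaling.

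With quantile normalization, 13 of the 22 lower genes belonged to complex I, 2 to complex III, 2 to complex IV and 5 to complex V, out of 33, 8, 6 and 14. NDUFA4, first assigned to complex I and later found with complex IV in mammals, measured 2599 and 2511 with FGF2 against 3438 and 4576 without, a difference of -0.63 (SE 0.36, 95% interval -1.52 to 0.26, limma adjusted p = 1). NDUFB10, an accessory subunit of the membrane arm, gave 1021 and 928 with FGF2 against 1255 and 1533 without (-0.51, SE 0.34), and the core subunit NDUFV2 1174 and 1034 with FGF2 against 1311 and 1664 without (-0.42, SE 0.31). In each of the 3 the second untreated array was the highest of the 8. The dim genes NDUFS3 and ATP5E had estimates of -0.64 (SE 0.74) and -0.64 (SE 0.39), the former from 94.5 and 74.0 with FGF2 against 94.7 and 179 without. The lowest estimate, -0.89 for the stator subunit ATP5J, came from a single untreated array at 79.5 among 7 arrays of 20.1 to 25.8, and without the first untreated array it passed the 2-fold rule at -1.88 (unadjusted p = 0.0038, adjusted p = 0.39).

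The 4 genes higher in both FGF2 arrays were NDUFA7, NDUFA8, UQCRB and ATP5I. NDUFA7, an accessory subunit, measured 449 and 408 with FGF2 against 312 and 357 without, a difference of 0.36 (SE 0.32, 95% interval -0.43 to 1.15). NDUFA8 gave 0.22, UQCRB 0.14 and ATP5I, the e subunit of the ATP synthase membrane part, 0.09. LDHA, high in both cultured groups, differed by 0.26 with FGF2 (interval -0.63 to 1.16), and SLC16A3 by 0.92 (0.23 to 1.61, limma adjusted p = 0.74).

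Additional probe sets exist for 31 of the 64 genes, 53 in all, and 35 of them had a mean intensity under 100. All probe sets of a gene had the same sign of difference in 16 of 31 genes for cultured minus fresh, 15 for otic minus lateral and 14 for FGF2 minus no FGF2. None of the 53 passed an adjusted p under 0.05 in any comparison. The 2-fold rule was passed by 1, 2 and 2 of them in the 3 comparisons, all with a mean under 100 and measuring genes whose bright probe set did not pass. They were a probe set of NDUFB4 (-1.12 in cultured minus fresh and 1.38 with FGF2), one of ATP5G1 (1.04 in otic minus lateral), one of ATP5J (-1.75 in otic minus lateral) and one of UQCRFS1 (1.91 with FGF2).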

How the data were processed

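Pooled RNA of fresh otic, fresh lateral and cultured trigeminal ectoderm was hybridized to the Affymetrix Chicken Genome array after 2 cycles of amplification. The deposited table holds 1 linear intensity per probe set and array, computed by the authors. Sources used here give no method for probe summary, background correction or scaling, and the submitters' processing notes name limma without a version.

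Of 38535 rows, 96 controls were left out. Values under 1 were set to 1, log2 was taken and arrays were quantile normalized. One mean per group was fitted to all 8 arrays with limma 3.58.1 in R 4.3.3 (lmFit, contrasts.fit, eBayes), with 4 residual degrees of freedom. Two-sided p-values were adjusted by Benjamini-Hochberg over 38439 probe sets, and intervals cover 95%. The number of arrays limits the precision, and arrays give no read depth. Gene names are those of the platform annotation, in which 27168 probe sets have 1 symbol, 177 several and 11094 none. Gene IDs of 63 of the 64 genes were found in the RefSeq table.

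The genes and lists were chosen with earlier results of these data known. Named genes were, per complex, those of largest difference in each direction and of smallest difference between cultured and fresh ectoderm, the brightest, up to 5 per direction without overlap in the other comparisons, tissue isoforms, and in each other list up to 2 genes past an adjusted p under 0.05. Further genes were named for their role or after their values were seen, among them ATP5B, ATP5F1AZ, COX7B, the complex I core subunits, LDHB, ENO1, SLC16A3, SLC25A4 to SLC25A6, COX4I1, NDUFAB1, ETFA and AOX1. The alternatives were no scaling, median centring, a filter on the dimmest 40%, eBayes trend, an offset of 32, a replicate block, each array left out, every probe set or their median per gene, and a fit of fewer groups. Cyclic loess and leaving out genes of mean under 100 were added after seeing the data. The fit was tested on simulated data with independent noise for each probe set. That simulation does not carry the joint movement of the chain genes between arrays, so it does not bear on their counts or medians as a set. Promoter and protein sequences were not used here. Plots used Python 3.11.15 with matplotlib 3.10.9.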

Additional observations from a re-analysis of the deposited data

How the results depend on the processing

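No respiratory chain gene passed an adjusted p under 0.05 (limma) in any of the 3 comparisons under any alternative tried. Under the 2-fold rule the count of 0 became 1 to 2 when every probe set was used (1 for cultured minus fresh, 2 for otic minus lateral and 2 for FGF2), and 0 to 1 with single arrays left out in each comparison. The partner of an array left out is taken to vary as other groups do. The median difference of cultured minus fresh ranged from -0.017 to 0.088 with arrays left out, that of otic minus lateral from -0.12 to 0.095, and that of FGF2 from -0.17 to -0.076. Without scaling between arrays the otic minus lateral median was 0.15, where the median of all probe sets was 0.19, and the FGF2 median 0.063. With median centring the FGF2 median was 0.0071.

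Counts of genes without overlap were the least stable. Higher and lower in culture they were 1 to 6 (1.56 to 9.38%) and 1 to 4 (1.56 to 6.25%) with arrays left out. Of all probe sets, 6 to 7.55% were then higher and 5.62 to 7.11% lower. Without scaling the counts were 0 and 0, beside 3.69% and 3.87% of all probe sets. In otic ectoderm they were 5 to 26 higher (7.81 to 40.6%) and 5 to 32 lower (7.81 to 50.0%) with arrays left out. Of all probe sets, 18.1 to 35.9% were then higher and 17.5 to 34.2% lower. Without scaling they were 13 higher (20.3%, beside 24.6% of all probe sets) and 1 lower (1.56%, beside 11.2%). Cyclic loess gave 8 lower (12.5%, beside 18.6%), and leaving out genes of mean under 100 gave 3 lower (5.08%, beside 17.5%). With FGF2 they were 4 to 13 higher (6.25 to 20.3%) and 22 to 39 lower (34.4 to 60.9%) with arrays left out. Of all probe sets, 17.8 to 35.2% were then higher and 17.5 to 36.6% lower. Without scaling they were 13 higher (20.3%, beside 23.3% of all probe sets) and 3 lower (4.69%, beside 13.1%). Median centring gave 11 higher (17.2%, beside 20.7%) and 9 lower (14.1%, beside 16.1%), and cyclic loess 2 higher (3.12%, beside 17.7%). Groups of fewer arrays separate more often by construction, and the cause of the scaling shifts was not tested. Of 1569 values of 31 named chain genes under the alternatives, 77 moved by more than the spread between replicates and 0 passed an adjusted p under 0.05. Several alternatives cannot change a difference, among them the dim filter, eBayes trend and the replicate block. The same holds for leaving out an array that is in neither group of a comparison. The 77 of 1569 thus understates how often the other alternatives moved a value. Same-numbered arrays did not deviate together (correlations of -0.068 to 0.050 between groups). The main fit used no pairing, and these correlations cannot tell whether same-numbered pools were prepared together. With the replicate number as a block, 0 chain genes passed an adjusted p under 0.05 in each comparison. Each group holds 1 array of each replicate number, so this block cannot change the differences, and the medians were necessarily 0.039, -0.0099 and -0.15. The calls of LDHA, ENO2, SLC16A3, CKMT2 and CKB in culture were lost under the block, at an adjusted p of 0.050, 0.093, 0.090, 0.077 and 0.098. ENO2 and SLC16A3 were also lost in the fit of cultured against fresh alone, and CKB without scaling (adjusted p = 0.053). All 5 passed with a filter on dim probe sets, eBayes trend, an offset of 32, median centring and cyclic loess. Signal over background limits the 5 genes of mean under 100, COX7B most of all.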
